A study of Mus musculus with 72 samples.

Results

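The cadherins and protocadherins described here are the 83 genes of the 10X table whose symbols begin with Cdh or Pcdh followed by a digit or a lower-case letter and that had a UMI (a counted RNA molecule) in at least 10 cells. They were taken from 17231 genes in all, and 91 symbols matched the name pattern. The 8 that were left out were Pcdha1, Pcdhga1, Cdh19, Cdh26, Cdh5, Cdhr4, Pcdh12 and Pcdhga4, found in 3 to 9 cells each. Just inside the limit stood Cdh17 and Pcdhgb1 with 10 cells each, Pcdhgb8 with 12 and Pcdhb2 with 14.

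The study profiled single Pet1 neurons of the adult mouse dorsal raphe (DR), the neurons marked by a history of Fev (Pet1) transgene activity, with droplet-based 10X libraries and with full-length libraries of manually sorted cells. The 10X table pools 2 runs of cells from the full DR, one from Pet1::Flpe+/- mice that also carried hM3Dq+/+ (mean age postnatal day 65.5) and one from mice with En1::cre+/-, Pet1::Flpe+/- and RC::FrePe+/- (mean age day 59). The 70 manual cells all carried Pet1::Flpe+/- and RC::FrePe+/- and differed in the Cre driver. With Sert::cre+/- there were 10 dorsolateral (dlDR), 9 dorsomedial (dmDR) and 8 ventromedial (vmDR) cells of day 63 or 90, and 6 caudal (cDR) cells of day 63. With P2ry1::cre+/- there were 10 caudal cells of days 62 to 74. With Npy2r::cre+/- there were 10 caudal and 9 rostral (rDR) cells of day 77 or 87, and with Crh::cre+/- 8 rostral cells of day 83 or 119. Cre and Flpe mark a cell for good, so a labelled cell need not express the driver gene when it is collected.

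Cadherins are calcium-dependent adhesion molecules. Classical type I and type II cadherins bind across the gap between cells and connect through catenins to the actin skeleton, and neurons that express the same type II cadherins often adhere and wire together. The delta protocadherins form a smaller, non-clustered group with their own adhesive and signalling roles in axon growth and synapse formation. The clustered protocadherins lie in 3 gene arrays, alpha, beta and gamma, from which each neuron in many brain regions switches on a small set, giving cells an identity code for self-recognition. Serotonin neurons are known as an exception, since they rely on the C-type isoform Pcdhac2 to space out their axons.

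The 83 genes comprised 3 type I cadherins, 11 type II cadherins, 6 other cadherins, 4 delta-1 and 5 delta-2 protocadherins, 2 other protocadherins and 52 clustered protocadherins (12 alpha, 21 beta and 19 gamma). In the GRCm38 annotation (GENCODE M21), 54 of the 83 lie on chromosome 18, which holds the clustered arrays together with Cdh2 and Pcdh1. Chromosome 14 holds 6, among them Pcdh8, Pcdh17, Pcdh20 and Pcdh9, and chromosome 15 holds 5 type II cadherins. The isoforms of the alpha array share their last exons with each other, as do those of the gamma array, so the gene-level values of single alpha and gamma isoforms depend on how shared reads were assigned and are uncertain.

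The 10X table held 2350 cells with a median of 59646 UMIs, 869 in barcode set 1 and 1481 in barcode set 2, and no barcode was found in both. Cells carry no animal and no run, so the table is 1 sample, no p-value is given, and animal, sex, genotype and barcode set cannot be told apart. Each group of manual cells likewise counted as 1 sample, since the labels name no animal, and each manual cell had between 756872 and 7664103 reads on genes. Serotonin neuron markers were present throughout. Tph2, the rate-limiting enzyme of serotonin synthesis, ranged from 2720 to 21204 CPM (counts scaled to the same total in every cell or class) over the manual cells, and Fev ranged from 242 to 1205 CPM.

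The 10X cells were put into classes by the UMIs of 4 genes. Cells with at least 3 UMIs of Met, a receptor tyrosine kinase, formed the Met class (93 cells), and of the rest those under 500 CPM of Tph2 formed the low-Tph2 class (131 cells). The others were divided by at least 3 UMIs of Gad2, which makes GABA, and of Slc17a8, the vesicular glutamate transporter VGLUT3, into the Gad2 class (872 cells), the Slc17a8 class (684), the class with both (256) and the class with neither (314). These classes are ranges, not cell types. The minimum of 3 UMIs had 246 cells just below it (1 or 2 UMIs) and 190 at 3 or 4 for Gad2, 341 and 129 for Slc17a8, and 46 and 22 for Met. The Tph2 limit had 21 cells between 250 and 500 CPM and 69 between 500 and 1000. Of the low-Tph2 cells, 102 had Slc17a8 without Gad2, as had 87 of the Met cells. Median depth was 62061 UMIs in the Gad2 class, 63265.5 in the Slc17a8 class, 46273 in the Met class and 27329 in the low-Tph2 class.

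The delta-2 protocadherins Pcdh8, Pcdh17 and Pcdh18 were 3 of the 4 members with the highest ratios in the low-Tph2 class (described with that class), and their promoters are printed because they share a run of bases. The windows are the 250 bases before the annotated start, 5′ to 3′ on the gene's strand, from RefSeq (GRCm38.p6), at chr14:79771313-79771562 (minus strand) for Pcdh8, chr14:84443313-84443562 (plus strand) for Pcdh17 and chr3:49757317-49757566 (minus strand) for Pcdh18. Capitals mark the run ATTGGCTGG, whose first 5 letters are an inverted CCAAT box.
Pcdh8: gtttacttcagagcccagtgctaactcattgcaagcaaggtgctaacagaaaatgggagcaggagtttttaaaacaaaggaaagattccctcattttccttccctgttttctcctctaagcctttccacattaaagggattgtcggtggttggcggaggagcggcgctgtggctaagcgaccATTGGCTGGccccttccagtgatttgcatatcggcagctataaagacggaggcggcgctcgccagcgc
Pcdh17: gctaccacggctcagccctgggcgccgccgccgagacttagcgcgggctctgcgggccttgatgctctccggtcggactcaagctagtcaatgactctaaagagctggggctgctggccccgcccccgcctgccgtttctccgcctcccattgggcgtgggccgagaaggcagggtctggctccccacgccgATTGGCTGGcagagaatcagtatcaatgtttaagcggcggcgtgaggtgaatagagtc
Pcdh18: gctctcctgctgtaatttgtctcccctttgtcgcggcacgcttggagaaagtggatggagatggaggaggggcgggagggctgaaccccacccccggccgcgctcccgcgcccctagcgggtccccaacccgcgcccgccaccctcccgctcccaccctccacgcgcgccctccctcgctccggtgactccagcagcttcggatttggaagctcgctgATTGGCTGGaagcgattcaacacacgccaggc
The run ends 59 bases before the start site of Pcdh8, 49 before that of Pcdh17 and 23 before that of Pcdh18. It was noticed in these 3 windows after their ratios were known and then searched on both strands, where it was present in 0.959% of all 32851 promoter windows of the table. Promoter windows were found for 24 of the 29 members outside the chromosome of the clustered arrays, and 4 of the 24 genes held the run, the fourth being the type II cadherin Cdh18. The windows of Cdh12, which ranked among those 4 members, and of the other delta-2 genes Pcdh10 and Pcdh19 did not hold it. Cdh13, Pcdh11x, Cdh11, Cdh4 and Cdh17 had no window. The shorter ATTGG was in 59.3% of the members' 27 windows and in 33.8% of all windows. CCGGAA, the core bound by ETS factors such as PET1, was in none of the members' windows on either strand and in 12.0% of all, which says only that these letters are not in these bases. The number of CG pairs was 11 for Pcdh8, 21 for Pcdh17 and 23 for Pcdh18, against a median of 6 over all windows. These matches describe the sequence and are not evidence of a site.

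Over all 10X cells the members held 157839 UMIs, 0.116% of the total, and 7 genes held 73.5% of these. Cdh13 encodes T-cadherin, a cadherin tethered by a lipid anchor without a cytoplasmic tail, and led with 37887 UMIs (280 CPM, 95% Poisson interval 277 to 282). Next came the delta-2 genes Pcdh17 (17547 UMIs) and Pcdh10 (17284), the delta-1 gene Pcdh9 (16830), Cdh2 (N-cadherin, 10097), Pcdh7 (9929) and Pcdh19 (6427), the last of which underlies an X-linked epilepsy in people. The delta-2 protocadherins held 27.3% of the member UMIs and the delta-1 genes 20.8%. At the other end, 40 members had under 100 UMIs, and 36 of the 52 clustered genes had a UMI in fewer than 100 cells.

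In the manual cells, whose full-length libraries allow levels to be set against exon length, Cdh13 was again first, and the order after it differed from that of the 10X UMIs. Mean RPKM, reads scaled by exon length and depth, over 70 cells were 39.6 for Cdh13, 21.4 for Pcdhac2, 16.9 for Pcdh9, 9.95 for Cdh22, 4.78 for Pcdh7, 4.35 for Pcdh10 and 3.98 for Pcdh17. All 83 members were in the manual table, 79 had reads, and 42 had reads in at least 7 cells. Per length, the single isoform Pcdhac2 thus stood above every delta protocadherin in these cells, with the uncertainty of the shared alpha exons.

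**Figure D1:**
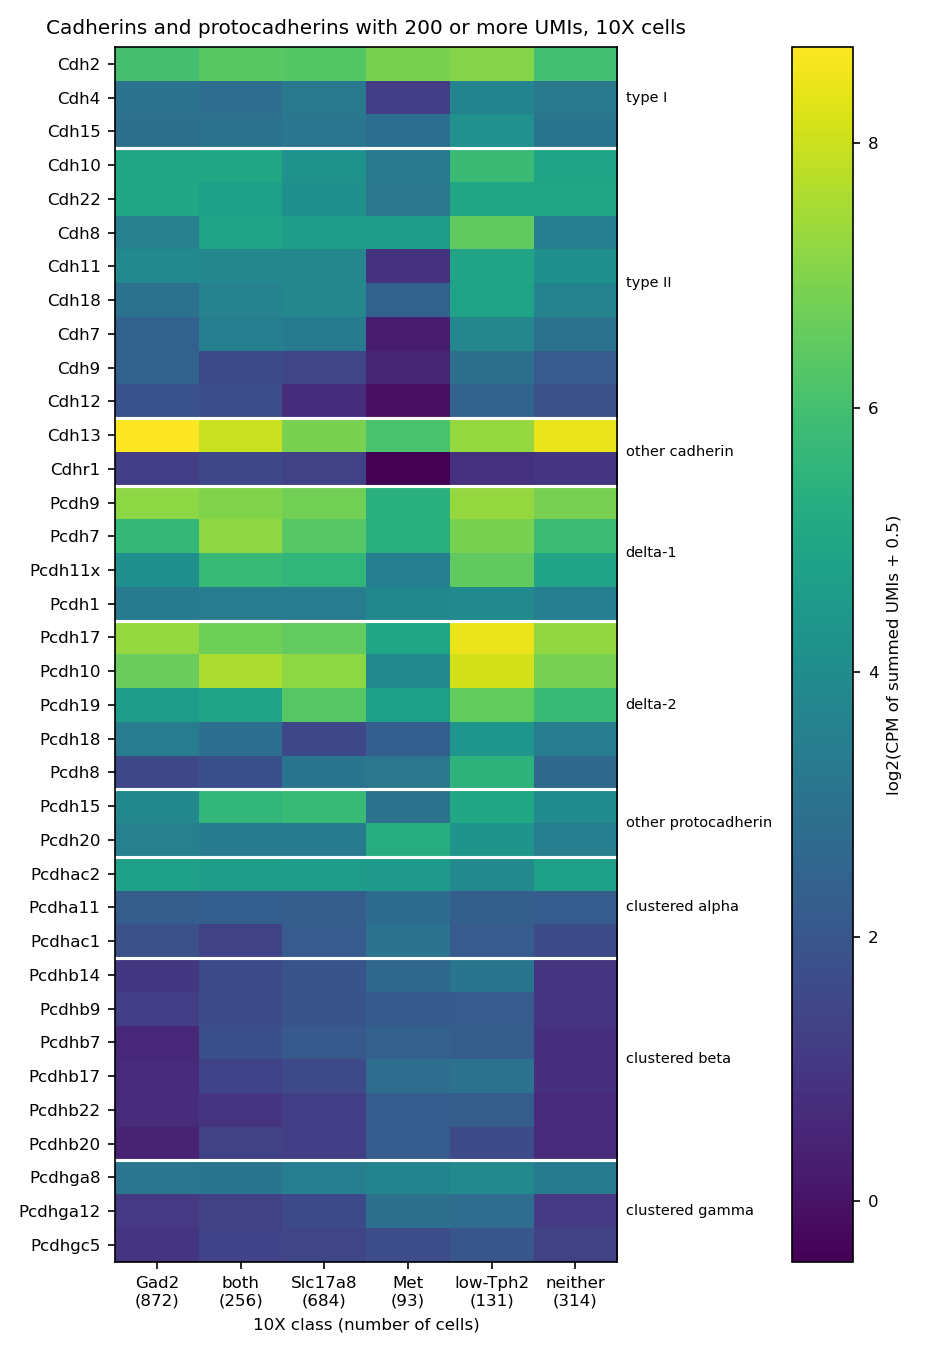
Level of the more abundant members (rows, grouped by subfamily) in the 6 classes of 10X cells (columns, with cell numbers), as log2 of the CPM of summed UMIs plus 0.5. Cdh13 is brightest in the Gad2 class and in cells with neither marker, Pcdh17 and Pcdh10 are brightest in the low-Tph2 class, and most type II cadherin and delta protocadherin rows are darkest in the Met class.

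Several members were spread unevenly between cells. If a gene's level were the same in every cell, depth alone would set how many cells lack a UMI. For Cdh13 the number without a UMI was 113-fold the number expected, 88 cells against 0.775. Pcdh17 was missing from 323 cells where 17.0 were expected, a ratio of 19.0 that exceeded those of 99.7% of 8092 genes with at least 1000 UMIs and 5 expected empty cells. Pcdh10 had a ratio of 10.8, Pcdh7 of 8.19, Pcdh9 of 4.01, Pcdh19 of 3.95, Pcdh11x of 3.59 and Pcdh15 of 2.38, all above 95% of these genes. Cdh2 had 115 cells without a UMI where 82.3 were expected, a ratio above those of 85.1% of these genes, and Pcdh1 had a ratio of 1.01. Over the 21 members that met these minimums the median ratio was 1.24, and over all such genes it was 1.06.

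**Figure D2:**
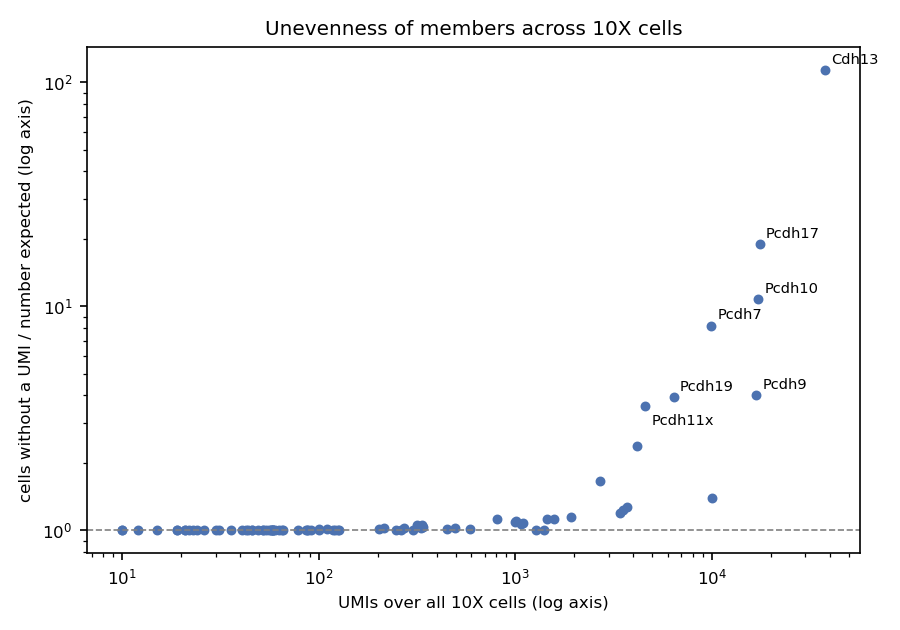
Number of 10X cells without a UMI divided by the number expected at an even level (vertical, log axis) against total UMIs (horizontal, log axis), 1 point per member. Members with few UMIs lie at 1 because they cannot depart from it, and Cdh13, Pcdh17, Pcdh10 and Pcdh7 stand highest with ratios of 113, 19.0, 10.8 and 8.19.

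Cell by cell, the strongest relation of a member with a class gene was between Cdh13 and Slc17a8, with a correlation of log-scaled levels of -0.68 over 2350 cells (-0.71 and -0.66 in the barcode sets). Among the 231 pairs of the 22 members with at least 1000 UMIs, Pcdh10 and Pcdh7 had the highest correlation, 0.55 (0.63 and 0.50 in the sets), followed by Pcdh10 and Pcdh11x at 0.52 (0.57 and 0.48). Cdh13 and Pcdh15 were opposed, at -0.41. The points share a library and its depth, and the values are given as a description without a test.

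The first comparison asked which members differ between the 2 large classes, the cells with Gad2 and those with Slc17a8. Cdh13 and Pcdh18 were higher in the Gad2 class, while Pcdh19, Pcdh15, Pcdh11x, Pcdh8, Cdh8 and 5 beta isoforms were lower. Of the 47 members with at least 50 UMIs in both classes together, 4 were at least 2-fold higher, against 3.63% of all 13298 genes tested, and 11 were at least 2-fold lower, against 3.59%, or 15 in either direction against 7.22%. The other 36 members had too few UMIs. The median log2 ratio was -0.63 over the members and 0.01 over all genes, but the members tested were less abundant (median 405 UMIs) than all genes tested (median 1707), and the part of this in the counts was not tested. Microglial markers (6 genes) summed to 5.27 CPM in the Slc17a8 class and 0.676 in the Gad2 class, and their part was not tested.

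Cdh13 stood at 423 CPM (418 to 429) in the Gad2 class, 245 in cells with both markers and 118 (114 to 121) in the Slc17a8 class. Its log2 ratio between the Gad2 and Slc17a8 classes was 1.85 (1.80 to 1.89, exact interval for counting error), with 1.97 in barcode set 1 and 1.79 in set 2. Cells with neither marker, at 352 CPM, lay nearer to the Gad2 class. Pcdh18 went the same way from a low level, 10.2 CPM against 2.42, a log2 ratio of 2.07 (1.76 to 2.39). The type II cadherins Cdh12 (1.44) and Cdh9 (1.13) completed the 4, although Cdh9 was under 2-fold in barcode set 2 (0.59). Pcdh17 was higher in the Gad2 class by less, at 152 against 92.4 CPM.

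Pcdh19 was at 24.3 CPM in the Gad2 class and 79.7 in the Slc17a8 class, a log2 ratio of -1.71 (-1.81 to -1.62). Pcdh15, whose product links the stereocilia of hair cells, was at 13.6 against 53.8 CPM (-1.98, -2.11 to -1.86). Pcdh11x, the X-linked delta-1 member, was at 17.3 against 47.0 CPM (-1.45). In cells with both markers, Pcdh15 and Pcdh11x stood at 48.3 and 52.6 CPM, near the Slc17a8 class, whereas Pcdh19 stood at 29.4, near the Gad2 class. Pcdh8 (-1.76), Cdh8 (-1.16) and Cdh7 (4.75 against 9.52 CPM) were the other non-clustered members on the lower side.

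Pcdh7 and Pcdh10 followed neither order. Both were highest, among these 3 classes, in cells with both markers, Pcdh7 at 146 CPM against 49.6 in the Gad2 class and 80.3 in the Slc17a8 class, and Pcdh10 at 195 against 97.2 and 142 CPM. Neither differed by 2-fold between the Gad2 and Slc17a8 classes. Within each barcode set, 3 of the 4 higher and 8 of the 11 lower members stayed past 2-fold, the exceptions being Cdh9 above and Cdh7, Pcdhb14 and Pcdhb17 below. Here and in the other class comparisons this tally was made for members only, so no share of all genes stands beside it.

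**Figure D3:**
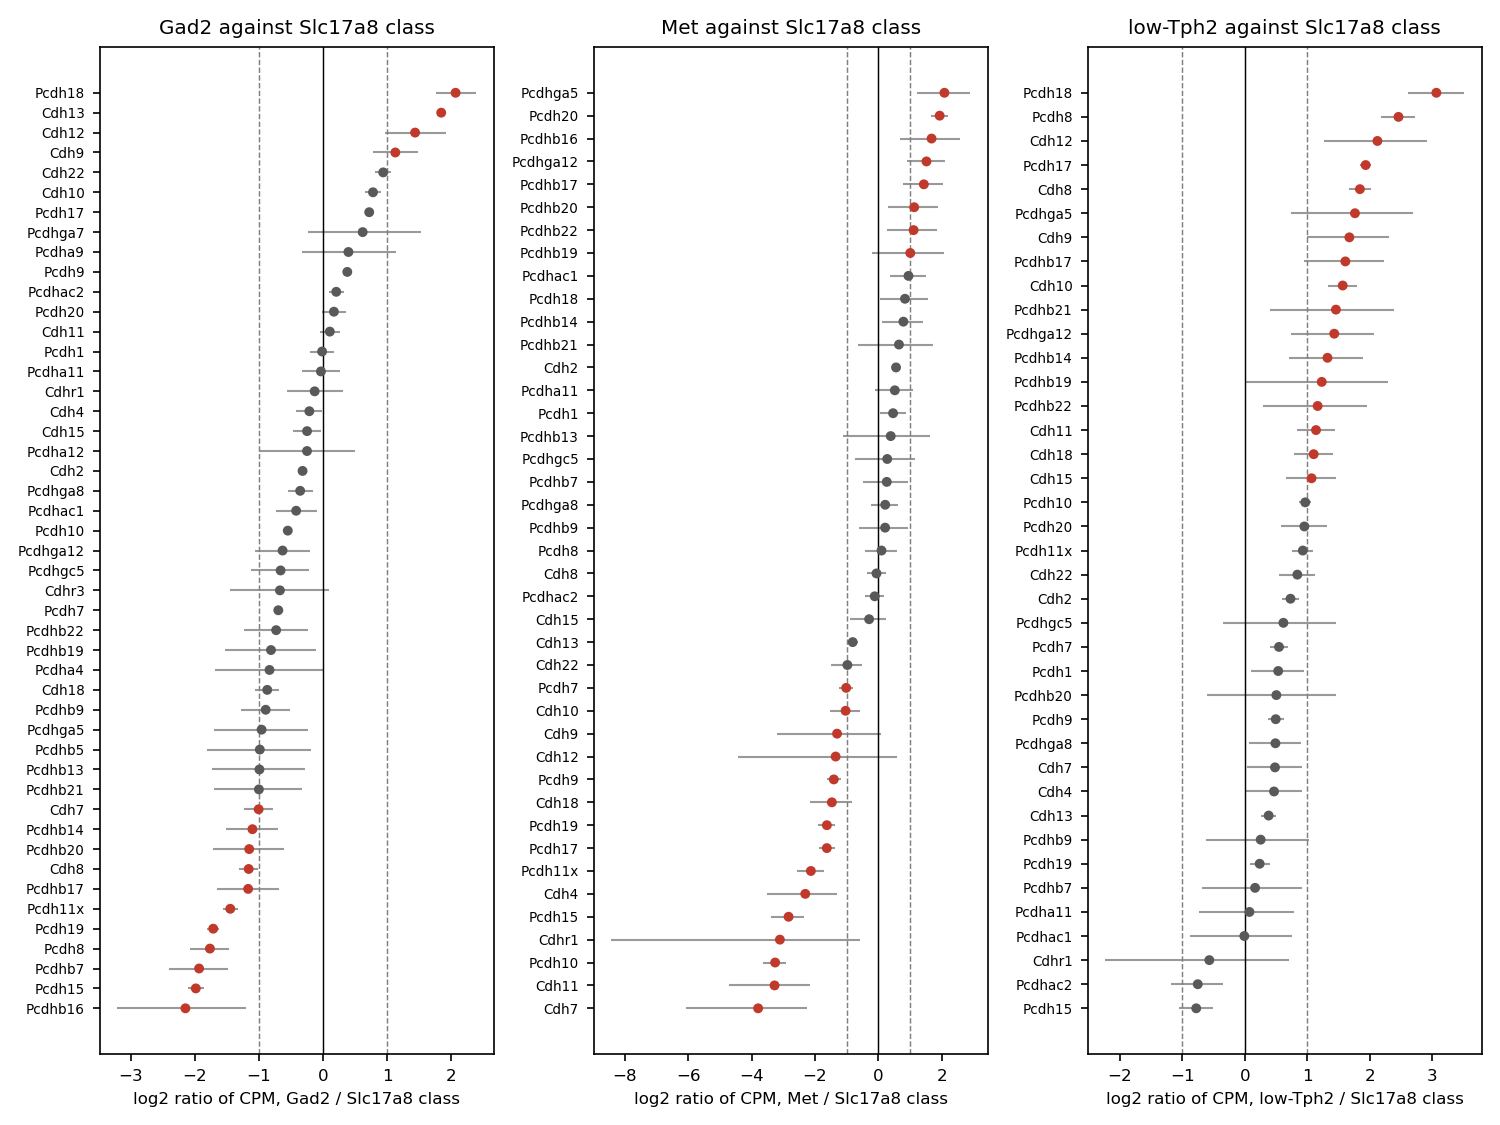
Log2 ratio of CPM for each member with at least 50 UMIs in the classes compared, Gad2, Met and low-Tph2 class each against the Slc17a8 class, with exact 95% intervals for counting error (grey) and values at least 2-fold apart in red (dashed lines at 2-fold). The Gad2 panel has 4 red points on the right and 11 on the left, the Met panel 8 and 15, and the low-Tph2 panel 17 and 0.

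The second comparison set the Met class against the Slc17a8 class, which shares its expression of Slc17a8. Most non-clustered members were lower in the Met class, led by Cdh7, Cdh11, Pcdh10 and, on 1 UMI in the Met class, Cdhr1. Pcdh20, several beta and gamma isoforms and, by under 2-fold, N-cadherin stood higher. Of 41 members tested, 15 were at least 2-fold lower, against 9.09% of 12315 genes, and 8 were at least 2-fold higher, against 3.25%. The medians of the log2 ratio were 0.10 over the members and 0.06 over all genes, so the members moved both ways. The 42 others had under 50 UMIs. All 3 comparisons of 10X classes share the Slc17a8 class and are therefore not independent of each other.

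Pcdh10 was at 14.9 CPM (65 UMIs) in the Met class and 142 CPM in the Slc17a8 class, a log2 ratio of -3.26 (-3.63 to -2.91), with -4.54 in barcode set 1 and -2.78 in set 2. Pcdh17 was at 29.9 against 92.4 CPM (-1.63), with a wide difference between the sets (-3.21 and -1.18). Of the other delta genes, Pcdh19 (-1.63), Pcdh9 (-1.40), Pcdh11x (-2.13) and Pcdh7 (-1.01) were also past 2-fold, which left Pcdh1, Pcdh8 and Pcdh18 of the 9. Of the 8 type II cadherins tested, 6 were lower by 2-fold. Cdh11, known from osteoblasts and mesenchyme as well as brain, had 6 UMIs in the Met class (1.37 CPM) against 13.3 CPM. Cdh7 had 3 UMIs, a log2 ratio of -3.80 with an interval from -6.08 to -2.24. Cdh12 and Cdh9, with 2 and 4 UMIs in the Met class, had intervals that reached 0, and Cdh12 turned to the higher side in barcode set 1. Cdh8 did not share this, with 24.0 CPM in the Met class and 25.0 in the Slc17a8 class. Cdhr1, a photoreceptor cadherin, had 1 UMI in the Met class and a log2 ratio of -3.11 (-8.43 to -0.59). The type I cadherin Cdh4 (R-cadherin) was at 1.83 against 9.05 CPM (-2.31). Within each barcode set 12 of the 15 lower members stayed past 2-fold, the exceptions being Pcdh7, Cdh12 and Cdhr1, and 7 of the 8 higher members did, the exception being Pcdhb19.

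Pcdh20 went the other way, at 37.9 CPM (166 UMIs) in the Met class and 9.90 in the Slc17a8 class, a log2 ratio of 1.94 (1.67 to 2.20). It exceeded 2-fold in both barcode sets (2.89 and 1.57), although its overall level differed between them, 7.35 CPM in set 1 and 13.9 in set 2. N-cadherin was at 117 against 79.5 CPM, under 2-fold. The other 7 higher members were 5 beta isoforms and the gamma isoforms Pcdhga5 (2.09) and Pcdhga12 (1.52), on 9 to 31 UMIs each in the Met class, and the interval of Pcdhb19 reached 0. Of the 5 mural and meningeal markers 4 were in the table, and they summed to 13.5 CPM in the Met class against 0.380 in the Slc17a8 class. The 6 oligodendrocyte markers summed to 50.1 against 30.3 CPM, and the 6 microglial markers to 0.229 against 5.27 CPM. The 8 serotonin neuron markers summed to 5738 against 9353 CPM. Their part in the differences was not tested.

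The third comparison set the low-Tph2 class against the Slc17a8 class. Pcdh18, Pcdh8, Pcdh17 and several type II cadherins were higher in the low-Tph2 class, and no member was 2-fold lower. Of 39 members tested, 17 were at least 2-fold higher, against 9.36% of 12384 genes, and 0 were at least 2-fold lower, against 5.18%. Another 44 members were not tested. The median log2 ratio was 0.93 over the members and 0.20 over all genes, and with ratios taken relative to that overall shift 13 members were at least 2-fold higher and 0 lower, against 13.4% of all genes in either direction.

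Of the delta-2 genes, Pcdh18 was at 20.2 CPM in the low-Tph2 class and 2.42 in the Slc17a8 class, a log2 ratio of 3.06 (2.61 to 3.51), with 3.07 and 3.04 in the barcode sets. Pcdh8, an activity-regulated protocadherin also called arcadlin, was at 44.5 against 8.10 CPM (2.46, 2.18 to 2.73). Pcdh17 reached 353 CPM (334 to 372), its highest level in any class, against 92.4 (1.93, 1.84 to 2.02). Pcdh10 was also highest here, at 278 CPM, but its ratio to the Slc17a8 class stayed just under 2-fold.

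Of the 8 type II cadherins tested, 6 were at least 2-fold higher, namely Cdh12, Cdh8, Cdh9, Cdh10, Cdh11 and Cdh18. Cdh8 was at 89.5 CPM against 25.0 (1.84, 1.66 to 2.02), and Cdh10 at 55.4 against 18.7 (1.57). The exceptions were Cdh7 and Cdh22, at 13.3 and 30.6 CPM. Pcdh15 and Pcdhac2 were lower without reaching 2-fold. Pcdh15 was at 31.4 against 53.8 CPM, and Pcdhac2 was at 14.1 (10.6 to 18.5) against 23.7 CPM, its lowest level in any class. The low-Tph2 class also had the highest oligodendrocyte marker level, 72.1 CPM summed over 6 genes against 30.3 in the Slc17a8 class, none of the 4 mural and meningeal markers, the lowest summed level of the 8 serotonin neuron markers (1899 against 9353 CPM, Tph2 being used to make the class) and the lowest median depth. Its share of mitochondrial UMIs was 4.40% against 7.16% in the Slc17a8 class, and its median number of detected genes 6210 against 7829. The part of these in the differences was not tested. In both barcode sets 11 of the 17 stayed past 2-fold, the exceptions being Cdh18, Cdh15, Pcdhga5, Pcdhb19, Pcdhb21 and Pcdhb22.

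The clustered protocadherins were low as single genes and are best read as arrays. The beta array, whose genes are single exons and do not share reads through common last exons, ran from 11.3 CPM in the Gad2 class (10.4 to 12.2, 21 genes) over 21.8 in cells with both markers and 26.3 in the Slc17a8 class (24.8 to 27.9) to 59.4 in the Met class (52.4 to 67.1) and 59.1 in the low-Tph2 class (51.6 to 67.4). Cells with neither marker, at 12.1 CPM, resembled the Gad2 class. The intervals of the Gad2, Slc17a8 and Met classes did not overlap, and those of the Met and low-Tph2 classes did. The 5 beta isoforms past 2-fold in the Gad2 comparison were all lower there (Pcdhb7, Pcdhb14, Pcdhb16, Pcdhb17 and Pcdhb20), and none was past 2-fold in the opposite direction. Pcdhb7 was at 0.995 CPM in the Gad2 class and 3.80 in the Slc17a8 class, and Pcdhb16 at 0.225 and 0.997 CPM on 12 and 42 UMIs.

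The gamma array (19 genes) followed a like order, with 15.1 CPM in the Gad2 class, 21.0 in the Slc17a8 class, 37.0 in the Met class and 49.3 in the low-Tph2 class. Pcdhga8 had the most UMIs of the array in every one of these classes, from 8.30 to 14.9 CPM, but in the manual cells it had reads in 2 of 70 cells (mean 0.112 CPM), where Pcdhga12 had a mean of 13.8 CPM. The alpha array without Pcdhac2 (11 genes) was at 10.1 CPM in the Gad2 class, 12.1 in the Slc17a8 class, 22.2 in the Met class and 18.9 in the low-Tph2 class. Pcdhac2 alone held 3434 of the 4982 alpha UMIs and went against the other isoforms, with 27.4 CPM in the Gad2 class, 26.8 in cells with neither marker, 24.7 with both, 23.7 in the Slc17a8 class, 21.9 in the Met class and 14.1 in the low-Tph2 class. Its 95% intervals overlapped between all neighbours in that order, and that of the low-Tph2 class (10.6 to 18.5) lay below that of the Slc17a8 class (22.3 to 25.3). Pcdhac2 also differed between the barcode sets, 34.0 CPM in set 1 and 20.6 in set 2.

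**Figure D4:**
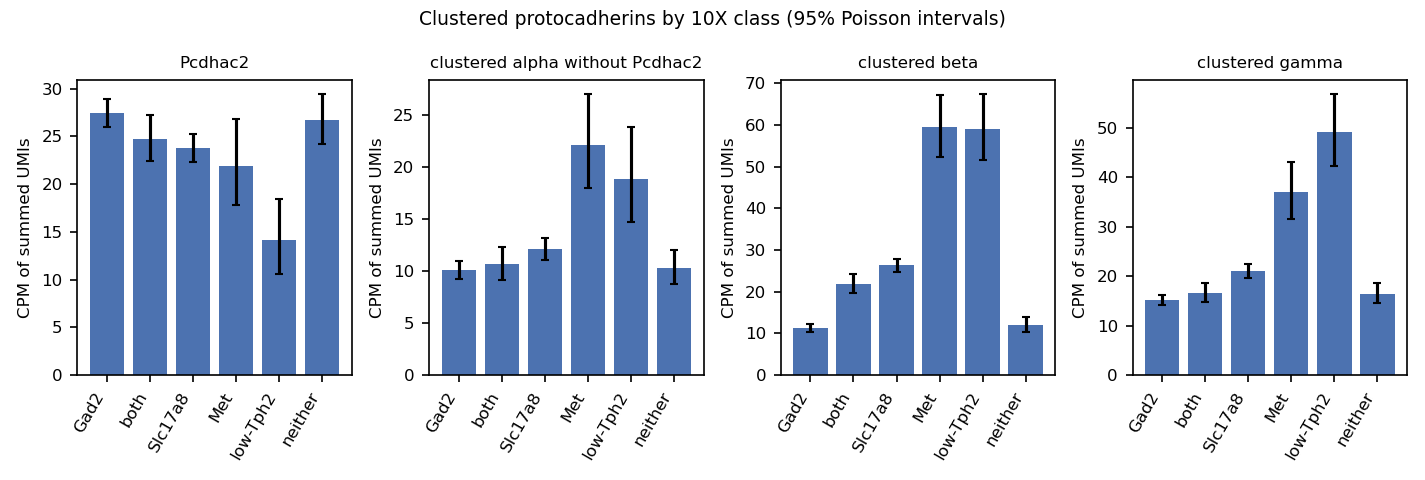
CPM of summed UMIs for Pcdhac2, the other 11 alpha isoforms, the 21 beta and the 19 gamma isoforms in the 6 classes of 10X cells (bars, from 0), with exact 95% Poisson intervals. Beta isoforms stand at 59.4 and 59.1 CPM in the Met and low-Tph2 classes against 11.3 in the Gad2 class, while Pcdhac2 is lowest, at 14.1 CPM, in the low-Tph2 class.

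Few clustered genes were found per cell. A median of 1 of the 12 alpha, 1 of the 21 beta and 1 of the 19 gamma genes had a UMI, with at most 5, 8 and 5 in a cell. No beta gene had a UMI in 1146 of the 2350 cells, 693 cells had 1 beta gene, 330 had 2 and 106 had 3. The mean number of beta genes was 0.499 in the Gad2 class, 1.16 in the Slc17a8 class, 2.05 in the Met class and 1.34 in the low-Tph2 class. Thinned to 20000 UMIs per cell, which left out 53 shallower cells (11 of them in the low-Tph2 class), these means became 0.211, 0.506, 1.07 and 0.950, in the same order. At these depths a gene without a UMI is not shown to be silent, and since all cells were sorted neurons no cell type that should lack these genes was at hand to measure free RNA. In the manual cells, with a minimum of 10 reads, and counting every clustered gene of that table, a cell had a median of 2 of 14 alpha genes (0 to 5), 1 of 22 beta genes (0 to 4) and 2 of 22 gamma genes (0 to 7). The means for beta genes ran from 0.667 in the rostral Npy2r cells to 1.60 in the P2ry1 cells. Pcdhac2 had reads in 67 of the 70 manual cells, and Pcdhga12 in all 70, from 1.09 CPM upward.

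Of 13 catenins and cytoplasmic partners tested, which couple classical cadherins to the cytoskeleton, 0 were 2-fold apart in the Gad2 comparison (7.22% of all genes) and in the Met comparison (12.3%), and 2 were in the low-Tph2 comparison (14.5%), Ctnnal1 higher (9.58 against 4.44 CPM) and Pkp2, a desmosomal plakophilin, lower (2.66 against 7.29 CPM). Among other genes of the cadherin superfamily and its regulators, 5 of 14 were 2-fold apart in the Gad2 comparison. Fjx1, which encodes a kinase of the Fat and Dachsous pathway, was at 15.8 CPM in the Gad2 class and 82.2 in the Slc17a8 class, a log2 ratio of -2.38 (-2.49 to -2.27). Fat3, a giant cadherin, was at 18.3 against 46.5 CPM (-1.35), and Ret, a receptor with cadherin repeats, at 43.6 against 18.4 CPM (1.24). In the Met comparison 3 of 11 were 2-fold apart, all lower, namely Fat3 and Ret, at 6.86 and 3.89 CPM, and Dchs2, at 0.229 against 1.42 CPM (log2 ratio interval -7.97 to -0.11). In the low-Tph2 comparison 3 of 11 were, with the Dachsous genes Dchs1 (10.4 against 3.30 CPM) and Dchs2 (4.26 against 1.42 CPM) higher and Fjx1 (31.1 against 82.2 CPM) lower. Of 15 genes for promoter choice and signalling of the clustered arrays, such as Ctcf and the cohesin subunits, 0 were 2-fold apart in the Gad2 comparison, 1 in the Met comparison (Ptk2b, on an interval that reached 0) and 1 in the low-Tph2 comparison (the cohesin gene Smc1a, at 79.9 against 37.1 CPM).

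The manual cells asked how members differ between DR subdomains and Cre drivers. Values are CPM per cell, folds are ratios of mean CPM with 1 CPM added, and genes had to reach a mean of 5 CPM in either group. A low gene can meet that minimum only through the group where it is high, and between 8 and 23 of the members called in each comparison did, so these counts are a description and support nothing. Of all genes called in a comparison, between 47.1% and 52.5% met it through 1 group only. Counts over the 26 members with a mean of 5 CPM over all 70 cells, a minimum chosen after seeing the data, stand beside them. Single cells varied widely, and 0 members had groups without overlap in any of the 6 comparisons. The share of all genes without overlap was 1.05% for P2ry1 against Sert caudal cells, 0.00939% for Npy2r caudal against rostral, 0.00937% for Crh against Npy2r rostral, 0% for Sert dlDR against dmDR, 0.0564% for dmDR against vmDR and 0.242% for cDR against vmDR. The comparisons share groups with each other.

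**Figure D5:**
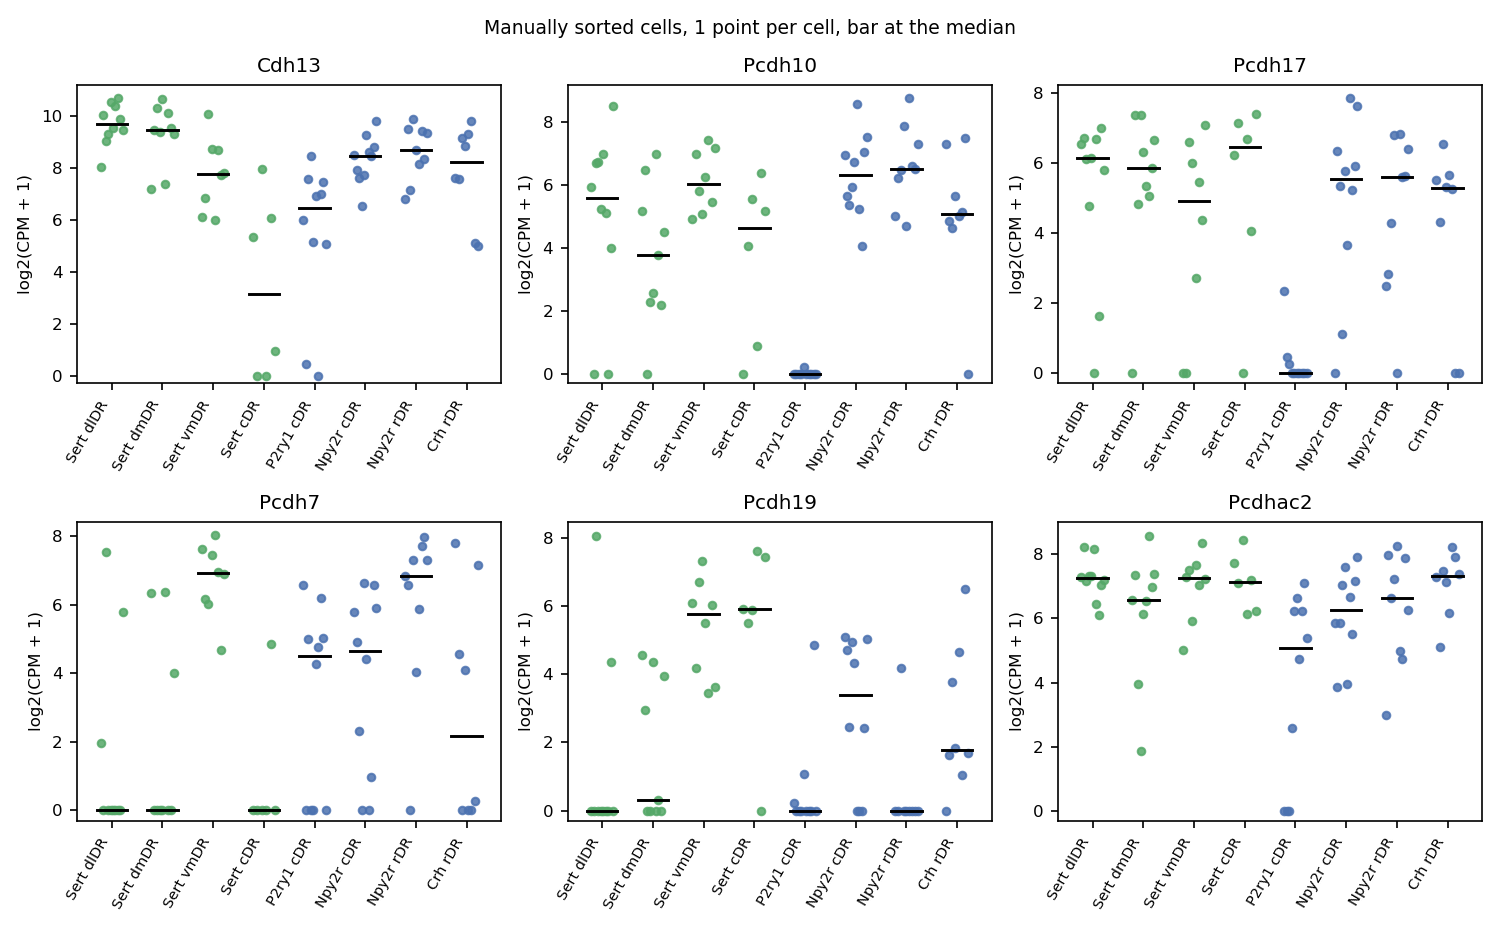
Log2 of CPM plus 1 in each manually sorted cell (1 point per cell, Sert groups in green and other drivers in blue, bar at the median of the log values) for 6 members. Pcdh10 and Pcdh17 lie at or near 0 in nearly all P2ry1 cells, Pcdh7 and Pcdh19 are above 0 in every Sert vmDR cell, and Cdh13 is lowest in Sert cDR cells.

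Between the subdomains of Sert cells, Cdh13 was highest in the dorsal and lowest in the caudal cells. The 10 dlDR cells ranged from 257 to 1621 CPM with a median of 832, and the 9 dmDR cells from 144 to 1579 with a median of 696. The 8 vmDR cells ranged from 63.1 to 1076 CPM around a median of 216, and the 6 cDR cells from 0 to 245 around 20.1. Ranges overlapped between neighbouring subdomains. Gad2 had reads in 9 of the 10 dlDR cells and 0 of the 6 cDR cells, while Slc17a8 had reads in 3 and 6.

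Sert dlDR and dmDR cells differed by 2-fold in 15 of 33 members, 10 higher in dlDR cells (7.14% of 10458 genes) and 5 lower (10.3%), and 10 of the 15 met the minimum only through the higher group. Of the 26 members, 11 differed (15.2% of 10229 genes). With each cell left out in turn, 7 of the 15 stayed past 2-fold. Here and in the comparisons below this was done for members only, so no share of all genes stands beside it. Pcdh18 had reads in 7 of 10 dlDR cells, with a median of 15.8 and a highest value of 169 CPM, and in 2 of 9 dmDR cells, at up to 14.4 CPM. It had no reads in the vmDR and cDR cells. Pcdh15 was lower in dlDR cells, with reads in 3 cells up to 47.1 CPM against 4 dmDR cells up to 120 CPM.

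Sert dmDR and vmDR cells differed in 15 of 28 members (19.9% of all genes), 7 higher in dmDR cells (8.59% of 10630 genes) and 8 lower (11.4%), of which 8 met the minimum through 1 group only. Of the 26 members, 11 differed (17.2% of 10229 genes). Whichever cell was left out, 8 of the 15 stayed past 2-fold. Pcdh7 had reads in all 8 vmDR cells, from 24.5 to 257 CPM with a median of 120, and in 3 of 9 dmDR cells, up to 81.6 CPM, a log2 ratio of -2.64 (between -3.32 and -2.42 without any 1 cell). Pcdh19 had a like pattern, with 9.88 to 160 CPM in the vmDR cells around a median of 55.0 and 0 to 23.0 CPM in the dmDR cells around 0.228 (-2.92). Pcdh10 ranged from 29.4 to 171 CPM in vmDR cells and from 0 to 125 in dmDR cells (-1.34). N-cadherin had a median of 22.1 CPM in vmDR and 6.09 in dmDR cells (-1.56).

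Sert cDR cells against vmDR cells differed in 20 of 31 members, 9 higher (12.0% of 10749 genes) and 11 lower (14.6%), of which 15 met the minimum through 1 group only and 14 stayed past 2-fold without any 1 cell. Of the 26 members, 14 differed (23.2% of 10229 genes). Pcdh7 had reads in 1 of the 6 cDR cells, at 27.8 CPM, a log2 ratio of -4.51. Cdh22, a type II cadherin of the brain, had a median of 0.278 CPM in cDR cells (0 to 75.7) and 35.4 in vmDR cells (0.429 to 316). Pcdh1, a delta-1 gene, was higher in cDR cells, with 0.685 to 46.9 CPM around a median of 30.8, against 0 to 13.9 around 0.941 (2.71). Pcdh19 stayed high in cDR cells, at a median of 59.3 CPM, with 1 of the 6 cells at 0. Astrocyte markers also reached higher levels in cDR cells, with a summed median of 27.2 CPM (0 to 202) against 0.0941 (0 to 25.4) in vmDR cells, and their part in these differences was not tested.

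P2ry1 and Sert caudal cells differed in 30 of 37 members, with 14 higher in P2ry1 cells (16.8% of 10713 genes) and 16 lower (19.4%), of which 23 met the minimum through 1 group only and 17 stayed past 2-fold without any 1 cell. Of the 26 members, 19 differed (32.5% of 10229 genes). Pcdh10 had reads in 1 of the 10 P2ry1 cells, at 0.156 CPM, and in 5 of 6 Sert cDR cells, up to 82.6 CPM with a median of 25.3, a log2 ratio of -4.94. Pcdh17 had reads in 3 P2ry1 cells, up to 4.10 CPM, against a median of 88.8 CPM (0 to 167) in the Sert cDR cells (-5.85). Pcdh19 had reads in 3 P2ry1 cells, up to 28.0 CPM (-4.51), and Pcdh15 in 1, at 12.1 CPM (-4.40). Pcdh9 had a median of 0.328 CPM in P2ry1 cells (0 to 103) and 81.5 in Sert cDR cells (9.78 to 176). Each of these 5 ratios kept its sign and stayed past 2-fold whichever cell was left out, but all except Pcdh9 met the minimum only through the Sert cDR cells.

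Pcdhac2 was also lower in P2ry1 cells, at 0 to 137 CPM around a median of 33.2 against 69.8 to 348 around 140 in Sert cDR cells, a log2 ratio of -1.83 that stood at -1.46 without Sert cDR replicate 3. The 3 manual cells without a read of Pcdhac2 were all P2ry1 cells. In the 10X cells Pcdhac2 was not set apart this way, at 21.9 CPM (17.8 to 26.8) in the Met class and 23.7 (22.3 to 25.3) in the Slc17a8 class. On the higher side, Pcdh7 had reads in 6 of 10 P2ry1 cells with a median of 22.1 CPM (2.33, or 1.88 without P2ry1 replicate 1). Cdh10 had reads in 5, up to 137 CPM (3.06, or 2.10 without P2ry1 replicate 3). Pcdh20 was higher by 1.01 on the log2 scale, but stood at -0.38 without P2ry1 replicate 9, the cell at 163 CPM. P2ry1 cells ranged from 6809 to 8930 detected genes and Sert cDR cells from 9078 to 10444, and the groups also differ in Cre driver, so the driver and the number of genes cannot be told apart. All Sert cDR cells were of day 63, and the P2ry1 cells of days 62 to 74. The part of age in the differences was not tested. Glial markers moved with the groups as well. The 6 oligodendrocyte markers summed to a median of 44.3 CPM in Sert cDR cells (0.279 to 268) and 0 in P2ry1 cells (0 to 85.8), and the 5 astrocyte markers to 27.2 (0 to 202) and 0 (0 to 53.6). Their part in the differences was not tested.

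Met had reads in 9 of the 10 P2ry1 cells and in 1 cell each of the Sert vmDR and Npy2r rostral groups, at 1.07 and 3.45 CPM. The Met class of the 10X table is therefore set beside these separate libraries, as a description. Pcdh10, Pcdh9, Pcdh17, Pcdh19, Pcdh15, Cdh11 and Cdh18 were at least 2-fold lower in the Met class and also in P2ry1 cells, though Cdh18 stood at -0.54 in the manual cells without Sert cDR replicate 6. Pcdh7 and Cdh10 were lower in the Met class and at least 2-fold higher in P2ry1 cells. Pcdh20 and Pcdhb17 were higher in both, each under 2-fold in the manual cells when 1 cell was left out. Most of these met the manual minimum only through the group where they were high, so no count is drawn from them and they do not support the Met comparison. Of all genes 2-fold lower in the Met class and tested in the manual cells, 72.5% were 2-fold lower in P2ry1 cells and 6.46% were 2-fold higher. Of all genes 2-fold higher in the Met class and tested there, 66.4% were 2-fold higher in P2ry1 cells and 7.12% were 2-fold lower. Pcdhac2, Cdh8, Pcdh8, Pcdh1 and Cdh15 were at least 2-fold lower in P2ry1 cells but under 2-fold apart between the Met and Slc17a8 classes. The reference groups differ, Slc17a8 class cells of the full DR in one and Sert caudal cells in the other. In the Sert cDR cells themselves Pcdh7 and Cdh10 each had reads in 1 of 6.

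Npy2r caudal and rostral cells differed in 12 of 28 members, 5 higher in caudal cells (9.61% of 10648 genes) and 7 lower (12.4%), of which 10 met the minimum through 1 group only and 5 stayed past 2-fold without any 1 cell. Of the 26 members, 9 differed (19.1% of 10229 genes). Pcdh7 had a median of 113 CPM in rostral cells (0 to 247) and 24.6 in caudal cells (0 to 98.2), a log2 ratio of -1.67. Pcdh19 had reads in 7 of 10 caudal cells, up to 33.5 CPM, and in 1 of 9 rostral cells, at 17.3 CPM (2.44). Pcdh15 and Cdh13 did not reach 2-fold, with Cdh13 medians of 351 and 407 CPM.

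Crh and Npy2r rostral cells differed in 17 of 29 members, 7 higher in Crh cells (10.4% of 10674 genes) and 10 lower (9.83%), of which 12 met the minimum through 1 group only and 5 stayed past 2-fold without any 1 cell. Of the 26 members, 12 differed (17.2% of 10229 genes). The Crh cells were of day 83 or 119 and the Npy2r rostral cells of day 77 or 87, so Cre driver and age cannot be told apart. Cdh8 had reads in 2 of 8 Crh cells, up to 34.1 CPM, and in 7 of 9 Npy2r rostral cells, up to 144 CPM (-2.65). Pcdh19 had reads in 7 of the 8 Crh cells, with a median of 2.40 and a highest value of 89.8 CPM (2.61, or 1.35 without Crh replicate 7). Pcdh10 was lower in Crh cells by 1.10 on the log2 scale, and by 0.65 without Npy2r rostral replicate 6. Members tested in the manual comparisons had median levels between 15.0 and 21.4 CPM, under those of all genes tested (40.1 to 44.8 CPM), and the part of this in the counts was not tested.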

How the data were processed

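The 10X table holds UMI counts per gene and cell that the authors made and filtered, and the manual table holds read counts per gene and cell that the authors deposited. The submitters' processing notes name Cell Ranger 3.0.2, STAR 2.5.4, R 3.5.3 and mm10. Manual cells had 756872 to 7664103 reads on genes and 10X cells 12320 to 134079 UMIs.

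UMIs were summed per class (Python 3.11.15, with scipy 1.17.1 for the intervals) and given as CPM with 95% exact Poisson intervals. Ratios had exact conditional binomial intervals. Intervals cover counting error only. A member was called apart at a ratio of at least 2-fold, among genes with 50 UMIs in both classes together. Manual cells were compared by mean CPM with a pseudocount of 1 CPM, among genes with a mean of 5 CPM in either group. Each table or group is 1 sample without a known animal, so no p-value was computed. Doublets, called with Scrublet in scanpy 1.11.5, numbered 14 (0.596% of cells) and were kept. Scripts were tested on simulated data.

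Genes were named as the 12 members with the most UMIs, the 5 highest and 5 lowest ratios of each 10X comparison, the 3 highest and 3 lowest of each manual comparison among genes with reads in at least 80% of the cells of the higher group, and Pcdhac2, Pcdhgc4 and Pcdhgc5. Others were named after their values were seen. Members, classes and gene lists were chosen with earlier results of these data known. Alternatives were other UMI and CPM minimums, thinning to 20000 UMIs, each barcode set alone, centring, medians over cells, single ages, and, chosen after seeing the data, leaving out each manual cell in turn and a CPM minimum on the mean over all manual cells.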

Additional observations from a re-analysis of the deposited data

Results flagged for a closer look

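In 6 of 86 sets of manual cells 1 cell stood apart from the others by Dixon's criterion. For normally distributed values chance alone passes it in about 1 set in 20. A lone cell at 0 CPM lies far below cells with reads on the log scale, so that rate need not hold here. Pcdh17 was at 0 CPM in Sert dmDR replicate 1, against 27.8 to 167 in the other cells of its group, and Cdh22 was at 5.58 CPM in the same cell, against 23.5 to 84.0. Pcdh19 was at 0 CPM in Sert cDR replicate 5, against 44.5 to 195 in the others. Pcdh7 was at 0 CPM in Npy2r rostral replicate 3, against 15.3 to 247. Pcdh10 was at 0 CPM in Crh replicate 8, against 23.6 to 179. P2ry1 replicate 10 had 3999547 reads on genes, against 5247449 to 6416860 in the other P2ry1 cells.

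Pcdhgc4, a C-type gamma isoform that is not a member, had reads in 50 of the 70 manual cells.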

How the results depend on the processing

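No paired analysis was possible because no value comes from a fitted test and the replicate numbers of single cells name no shared animal. Counts of members at least 2-fold apart moved most with the minimum level, since that sets how many members are compared. They are given here without the share of all genes under each setting. They show only how the member counts move, not how members stand against other genes. With any gene of at least 1 UMI the counts were 37 for the Gad2, 49 for the Met and 46 for the low-Tph2 comparison (15, 23 and 17 as reported), and with at least 200 UMIs 13 for Met and 7 for low-Tph2. Thinned to 20000 UMIs per cell, they were 14 for Met (1 higher, 13 lower, against 8 and 15 as reported) and 10 for low-Tph2, and barcode set 1 alone gave 15 for Met (2 higher, 13 lower). Under these settings 28 and 25 members reached the minimum for the Met comparison instead of 41. Relative to the median of all genes, the splits were 4 higher and 13 lower, 7 and 16, and 13 and 0. In the manual cells, medians over cells gave 16 members for P2ry1 against Sert caudal, 6 for Npy2r caudal against rostral, 9 for Crh against Npy2r and 5 for Sert dlDR against dmDR. Without a minimum the counts were 46, 25, 25 for dlDR against dmDR, 35 for dmDR against vmDR and 39 for cDR against vmDR, and with a mean of at least 20 CPM they were 15, 3, 5 (Crh), 5, 6 and 11. Npy2r cells of day 77 alone gave 22. With the minimum on the mean over all manual cells, the P2ry1 count was 19. Among single ratios, Cdh12 in the Met comparison reversed to 0.86 in barcode set 1 and 0.39 when thinned, on 2 UMIs in the Met class, and Pcdhga12 in dlDR against dmDR reversed to -0.69 at day 90, where the cause was not tested. Of 504 alternatives run for 42 named 10X ratios, 446 kept their sign and stayed within the reach of the counting interval around the reported ratio, and of 146 for 18 manual ratios 137 kept their sign and stayed within the SD between cells.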
